A study of Mus musculus with 18 samples.

Results

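LIRKO mice, which lack the insulin receptor in the liver, were compared with control (Ctrl) mice while both were on HFD, read here as a high-fat diet. The comparison takes the 3 libraries labelled LIRKO_HFD and the 5 labelled Ctrl_HFD, 8 of the 18 RNA-seq libraries of the series, and covers all genes. The RNA is total RNA of islet beta cells, which were sorted on scatter and endogenous fluorescence once the islets had been kept in culture overnight. The other 10 libraries, 6 Ctrl and 4 LIRKO from mice on chow, serve here to estimate the spread and to ask whether a difference was also seen on chow. The labels give genotype and diet and nothing on age, sex, the Cre driver of the knockout, the length of the diet or which libraries come from separate mice. The p-values thus rest on the spread between libraries, which may be partly technical.

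The liver clears insulin and stops making glucose when its insulin receptor is engaged. Mice whose liver cannot respond have high blood insulin, and their beta cells face a constant demand for more, which is met by secretion and by growth of the islets. A high-fat diet adds insulin resistance of muscle and fat. Beta cells answer such demand through receptors that tune secretion, through secreted peptides that act back on the islet, through IGF and insulin receptors, and through changes in how they handle fuel.

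Total counts were 19490235 to 35281010 per library in Ctrl HFD and 34790225 to 38795120 in LIRKO HFD. The defining transcripts of beta cells were abundant in every library. The insulin genes Ins1 and Ins2 summed to 8.97% to 18.7% of counts in Ctrl HFD and to 10.0% to 16.3% in LIRKO HFD. Iapp, the amylin gene, stood at 14996 to 28363 CPM in Ctrl and at 20852 to 42075 CPM in LIRKO, where CPM is the count scaled to a common library size. Glucagon (Gcg) was present as well, at 279.7, 972, 3720.0, 3965 and 355 CPM in Ctrl replicates 1 to 5 and at 287, 2586 and 3369.5 CPM in LIRKO replicates 1 to 3. Ctrl replicates 1 and 2 stood apart. They had the fewest counts of the HFD libraries, 19490235 and 21590129. Protein-coding genes took 95.7% and 95.6% of their counts and 97.1% to 98.0% of those of the other 6 libraries. The nuclear RNA Malat1 took 1.37% and 1.06% of their counts and 0.276% to 0.600% of those of the other 6 libraries, and their summed level of 66 ribosomal protein genes was 28153 and 32372 CPM against 10831 to 14431 in Ctrl replicates 3 to 5. The spread of the log2 ratio over 14289 genes (median absolute deviation) was 0.292 between these 2 libraries and 0.722 to 0.926 between either of them and Ctrl replicates 3 to 5, which lay 0.303 to 0.368 apart. Calls are therefore given with and without these 2 libraries. LIRKO replicate 1 was 0.418 and 0.467 from LIRKO replicates 2 and 3, which were 0.264 apart.

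**Figure D1:**
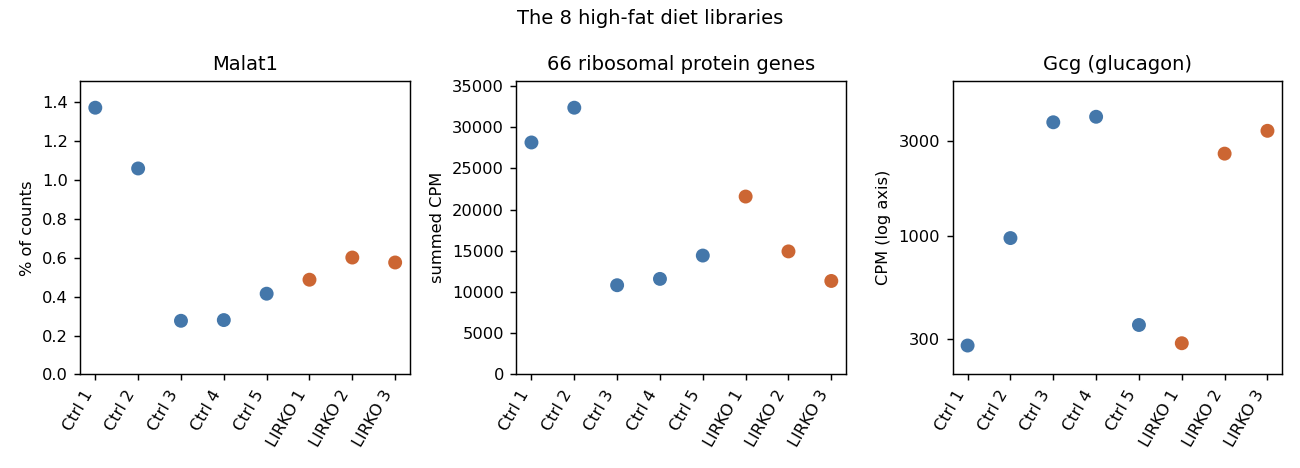
Share of counts in Malat1 (%), summed CPM of 66 ribosomal protein genes and Gcg CPM (log axis) in each of the 8 HFD libraries, Ctrl in blue and LIRKO in orange. Ctrl replicates 1 and 2 are highest for Malat1 (1.37% and 1.06%) and for the ribosomal genes, while Gcg divides each genotype.

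The insulin receptor gene Insr stood at 33.4, 35.8, 59.4, 57.2 and 63.5 CPM in Ctrl replicates 1 to 5 and at 54.5, 52.4 and 54.0 CPM in LIRKO replicates 1 to 3. The LIRKO values lie inside the Ctrl range (log2 0.10, edgeR adjusted p = 0.929; −0.16 and 0.574 without Ctrl replicates 1 and 2). The deletion is in the liver, so its level in beta cells checks no label.

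Across 19284 genes tested, 98 passed edgeR's quasi-likelihood test at a Benjamini-Hochberg adjusted p under 0.05, which is 0.508% of the genes. Of these, 61 were higher in LIRKO (0.316%) and 37 lower (0.192%), and 93 are protein coding. Their log2 changes ran from 0.603 to 6.28 in size, beside a median of −0.0351 over all genes. In 94 of the 98 the 3 LIRKO libraries lay wholly above or wholly below the 5 Ctrl libraries, a separation seen in 5.01% of all genes tested. Pck1, Stc2, Fbp2 and T2 were the 4 that overlapped.

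Without Ctrl replicates 1 and 2, 193 of 18941 genes passed (1.02%), 98 higher (0.517%) and 95 lower (0.502%). The higher share of the calls was 50.8% there and 62.2% with all libraries. Of the 98 genes, 83 kept their call (51 higher and 32 lower) and all 98 kept their sign. The 15 that lost it had adjusted p-values of 0.0534 to 0.0903, and among the genes described below they are Bmp3, Sh3bgrl2, Pak1, Pck1, Fbp2, Npy, T2 and Mslnl. A further 110 genes passed only without the 2 libraries, 47 higher and 63 lower.

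**Figure D2:**
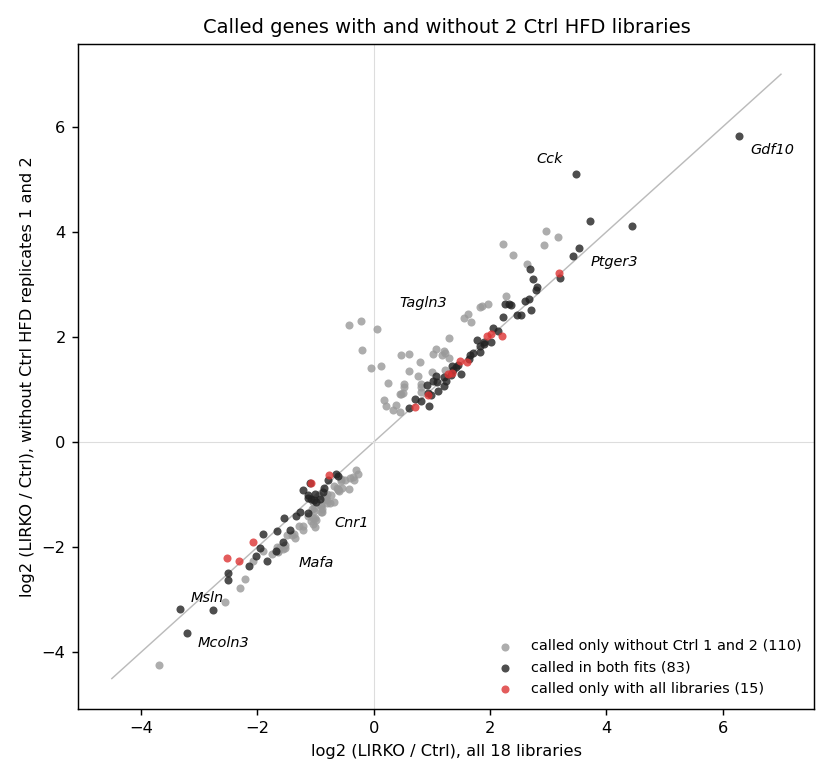
Log2 of the LIRKO to Ctrl ratio on HFD with all 18 libraries (x axis) against the same without Ctrl HFD replicates 1 and 2 (y axis), 1 point per gene called in either fit. The 98 genes called with all libraries, black where kept (83) and red where lost (15), lie near the diagonal, and the 110 called only without the pair (grey) are farther from 0 on the y axis.

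Single libraries also set the number of calls. Leaving out LIRKO replicate 2 or 3 gave 15 and 10 genes, leaving out LIRKO replicate 1 gave 90, and leaving out Ctrl replicates 1 to 5 in turn gave 71, 121, 56, 162 and 42. With the near-identical LIRKO chow libraries 1 and 2 summed, and likewise 3 and 4, 54 genes passed, and all 54 were among the 98. A fit of the 8 HFD libraries alone called 19, of which 17 were higher and 2 lower. Of the 98, 10 kept their call with each of the 8 HFD libraries left out in turn: Ptger3, C1ql3, Car8, Cyp4x1, Aqp4 and D330045A20Rik, all higher, and Msln, Ltbp2, Lpl and Col9a2, all lower. The other 88 lost it in at least 1 of the 8. These leave-outs kept the chow libraries. The fit of the 8 HFD libraries alone called 2 falls, so the falls named here did not all pass in it.

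Of the receptor genes described here, Ptger3 had the largest rise. It encodes the EP3 receptor for prostaglandin E2, which couples to inhibitory G proteins and restrains insulin secretion (chromosome 3, 157566892 to 157645888 on GRCm38). Ptger3 stood at 0.745, 1.49, 1.24, 1.17 and 0.211 CPM in Ctrl replicates 1 to 5 and at 10.6, 9.40 and 13.6 CPM in LIRKO replicates 1 to 3. Every LIRKO library was several times above the highest Ctrl library. The rise was 11.6-fold (log2 3.53, SE 0.51, edgeR adjusted p = 0.00415), 3.69 on the log2 scale without Ctrl replicates 1 and 2 (adjusted p = 0.00964) and 3.26 to 3.73 with single libraries left out. Of 31 islet G-protein-coupled receptor genes tested, Ptger3 was the 1 that passed, and the list's median log2 was −0.19.

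Gfra1, the co-receptor for the growth factor GDNF, stood at 2.63, 3.86, 3.11, 5.07 and 2.75 CPM in the Ctrl libraries and at 22.3, 16.3 and 19.4 CPM in the LIRKO libraries. The groups did not overlap, and the rise (log2 2.47, edgeR adjusted p = 0.00794) was 2.41 without Ctrl replicates 1 and 2 (adjusted p = 0.0226). It was the 1 call among 25 tested genes of growth factor receptors and ERK feedback.

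Igf1r, the receptor for insulin-like growth factors and a close relative of the insulin receptor, moved the other way. The gene lies at chromosome 7, 67952827 to 68233668 on GRCm38. Its level was 325, 270.3, 372, 264 and 252 CPM in Ctrl replicates 1 to 5 and 119.7, 149 and 152 CPM in LIRKO replicates 1 to 3, and the lowest Ctrl library was above the highest LIRKO library. Igf1r fell by 1.08 on the log2 scale (SE 0.22, edgeR adjusted p = 0.0272), and its log2 change was −1.08 without Ctrl replicates 1 and 2 (adjusted p = 0.0384). With single HFD libraries left out the log2 change was −1.14 to −0.98, and the call was kept in 3 of 8. Igf1r was the 1 call among 29 tested members of the insulin and IGF signalling list. Without the pair Trib3, a pseudokinase that binds AKT and was singled out after its values were seen, passed too (log2 −0.70, adjusted p = 0.0401, against −0.56 and 0.187 with all libraries).

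Igf2, a ligand of that receptor, was lower as well. It stood at 6.65, 5.68, 5.09, 8.60 and 7.08 CPM in the Ctrl libraries and at 2.21, 3.10 and 2.53 CPM in the LIRKO libraries, without overlap (log2 −1.34, edgeR adjusted p = 0.0185; −1.40 and 0.0192 without Ctrl replicates 1 and 2). Stc2 encodes stanniocalcin-2, a secreted inhibitor of the pappalysin proteases that free IGFs from their binding proteins. Stc2 stood at 0.645, 1.02, 0.622, 1.42 and 0.555 CPM in Ctrl and at 1.31, 4.01 and 3.81 CPM in LIRKO, where replicate 1 was below the highest Ctrl library. Its rise (log2 1.84, edgeR adjusted p = 0.0211) held without Ctrl replicates 1 and 2 (log2 1.83, adjusted p = 0.0446). These were the 2 calls among 11 tested genes of IGF ligands, binding proteins and stanniocalcins.

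Of 23 tested neuropeptide and secreted peptide genes, 2 rose, C1qtnf1 and Cck, and 1 fell, Npy. C1qtnf1 encodes a secreted protein of the C1q and tumour necrosis factor family. The gene lies at chromosome 11, 118428203 to 118449963 on GRCm38. It stood at 3.08, 3.44, 1.81, 4.75 and 1.82 CPM in the Ctrl libraries and at 19.7, 19.7 and 22.1 CPM in the LIRKO libraries, and the 3 LIRKO values were close together. The rise was 6.90-fold (edgeR adjusted p = 0.0101; log2 2.88 and adjusted p = 0.0212 without Ctrl replicates 1 and 2).

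Cck encodes cholecystokinin, a gut hormone that obese mouse islets also make. Its level was 0.546, 1.54, 0.207, 0.220 and 0.0528 CPM in Ctrl replicates 1 to 5 and 1.80, 8.52 and 6.11 CPM in LIRKO replicates 1 to 3. The highest Ctrl library, replicate 2, was just below the lowest LIRKO library, replicate 1. Ctrl replicates 1 and 2 held the most Cck of the 5, and the log2 change went from 3.49 (edgeR adjusted p = 0.0272) to 5.10 without them (adjusted p = 0.00207). Npy, neuropeptide Y, which beta cells make early in life, was at 0.397, 0.559, 0.414, 0.567 and 0.370 CPM in Ctrl and at 0.0290, 0.109 and 0.125 CPM in LIRKO. Npy fell by 2.31 on the log2 scale (edgeR adjusted p = 0.0344), and without Ctrl replicates 1 and 2 its adjusted p was 0.0548 at a log2 of −2.27. No HFD library held more than 0.567 CPM of Npy, so this fall rests on few counts.

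Chgb encodes chromogranin B, a major protein of the insulin granule. The gene lies at chromosome 2, 132781278 to 132795079 on GRCm38. Its level was 1635, 2823, 2002, 2763 and 1975 CPM in Ctrl replicates 1 to 5 and 3841, 4571 and 4471 CPM in LIRKO replicates 1 to 3, so the groups were apart. The rise was 1.92-fold (log2 0.94, SE 0.18, edgeR adjusted p = 0.0235) and 0.94 on the log2 scale without Ctrl replicates 1 and 2 (adjusted p = 0.0192). It was the 1 call among 20 genes of insulin, granule content and prohormone processing, whose median log2 was −0.0551. Sytl4, the granule docking protein granuphilin, singled out after its values were seen, passed only without the pair, where it was lower (log2 −1.17, adjusted p = 0.0336, against −0.81 and 0.446).

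Beta cells switch on granule and peptide genes through cAMP, whose target factor CREB binds the letters TGACGTCA, known as the CRE. The 250 bases before the start of transcription were searched on both strands for this motif, for its core TGACG, which also lies inside it, and for CACGTG (E-box), TGCTGAC (a Maf core) and GTAAACA (FoxO). RefSeq windows on GRCm38.p6 matched 65 of the 98 called genes. The CRE was in the windows of 3 of them, Chgb, Cpb2 and Pak1, all higher in LIRKO, and in 1.55% of all 32851 windows of this length. The core TGACG was in 15 of the 65 and in 17.8% of all, CACGTG in 6 (6.02% of all), TGCTGAC in 9 (3.81%) and GTAAACA in 1 (3.17%), and this last gene is Cck. The counts are per gene, with a match in any of its windows. The percentages are per window, over tested and untested genes alike, so counts and percentages are not on the same footing and no enrichment is read from them. The windows of Cck, which rose most among the peptide genes, and of the 3 genes with a CRE are printed 5′ to 3′ on the gene's strand, with every matched letter in capitals. In Cck, TGACG and TGCTGAC overlap on the reverse strand. Starts are those of RefSeq, which can differ from the GENCODE gene ends given above, and for Pak1 the first of its 2 windows is shown.
Cck, chr9:121495695-121495944, minus strand: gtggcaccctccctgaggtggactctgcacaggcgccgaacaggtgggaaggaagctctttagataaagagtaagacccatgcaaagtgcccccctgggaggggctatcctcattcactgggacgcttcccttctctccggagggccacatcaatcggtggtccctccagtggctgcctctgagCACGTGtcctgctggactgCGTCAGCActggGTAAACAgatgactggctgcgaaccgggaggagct
Chgb, chr2:132781392-132781641, plus strand: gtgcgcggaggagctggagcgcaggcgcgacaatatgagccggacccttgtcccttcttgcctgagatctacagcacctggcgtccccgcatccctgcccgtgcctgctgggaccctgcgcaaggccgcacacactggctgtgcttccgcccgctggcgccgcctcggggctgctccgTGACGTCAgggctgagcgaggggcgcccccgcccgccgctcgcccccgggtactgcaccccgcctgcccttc
Cpb2, chr14:75242037-75242286, plus strand: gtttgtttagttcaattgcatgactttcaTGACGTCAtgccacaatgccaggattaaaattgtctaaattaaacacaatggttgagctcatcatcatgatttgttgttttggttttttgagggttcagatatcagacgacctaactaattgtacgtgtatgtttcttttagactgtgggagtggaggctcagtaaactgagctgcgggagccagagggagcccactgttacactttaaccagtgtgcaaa
Pak1, chr7:97788291-97788540, plus strand: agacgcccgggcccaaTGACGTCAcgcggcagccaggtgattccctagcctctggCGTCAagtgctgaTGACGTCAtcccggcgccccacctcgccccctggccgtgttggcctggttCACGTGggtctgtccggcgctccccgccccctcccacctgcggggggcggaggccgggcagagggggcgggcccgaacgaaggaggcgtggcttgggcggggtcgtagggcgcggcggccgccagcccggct
Cpb2, which encodes a circulating carboxypeptidase, stood at 1.64, 2.75, 2.46, 2.17 and 1.66 CPM in the Ctrl libraries and at 5.37, 5.10 and 4.41 CPM in the LIRKO libraries. It rose by a log2 of 1.21 (edgeR adjusted p = 0.0215; 1.24 and 0.0257 without Ctrl replicates 1 and 2). Pak1, a kinase that remodels actin during insulin release, was at 11.3, 12.6, 13.4, 15.7 and 8.72 CPM in Ctrl and at 20.6, 24.6 and 25.1 CPM in LIRKO, a log2 rise of 0.93 (adjusted p = 0.0290) that lost its call without the pair (log2 0.90, adjusted p = 0.0602). Cpb2 and Pak1 were singled out after their values were seen. A match describes these letters and does not show that a factor binds there.

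Of 34 tested genes of TGF-beta, activin and BMP signalling, 1 rose, Bmp3, and 1 fell, Ltbp2. Bmp3, a BMP that blocks other BMPs, was at 3.82, 6.61, 4.06, 6.30 and 4.46 CPM in Ctrl and at 22.5, 17.3 and 21.7 CPM in LIRKO, with no overlap (log2 2.02, edgeR adjusted p = 0.0272). Its call was lost without Ctrl replicates 1 and 2 although the log2 change was 2.06 (adjusted p = 0.0534). Ltbp2, a matrix protein related to those that bind latent TGF-beta, was lower. Its level was 10.7, 9.45, 6.69, 7.87 and 14.5 CPM in the Ctrl libraries and 1.77, 1.90 and 1.504 CPM in the LIRKO libraries, a 5.70-fold lower level (log2 −2.51, edgeR adjusted p = 0.00382; −2.48 and 0.00501 without the pair). Ltbp2 was also the 1 call among 40 genes of extracellular matrix and basement membrane. Outside these lists Ntn1, the axon guidance protein netrin-1, was at 3.62, 3.86, 1.39, 3.59 and 2.19 CPM in Ctrl and at 14.5, 13.6 and 15.8 CPM in LIRKO (log2 2.33, adjusted p = 0.0399; 2.62 and 0.0460 without the pair).

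Outside the naming rule, and singled out after its values were seen, Gdf10 had the largest log2 change of the 98. It encodes the BMP-related factor BMP3b and stood at 0, 0.0466, 0.0592, 0.472 and 0 CPM in Ctrl replicates 1 to 5 and at 0.581, 14.2 and 14.5 CPM in LIRKO replicates 1 to 3. LIRKO replicate 1 was near the highest Ctrl library, replicate 4, and the other 2 LIRKO libraries were far above both. The log2 change of 6.28 (edgeR adjusted p = 0.00825) therefore rests on LIRKO replicates 2 and 3, and it was 5.82 without Ctrl replicates 1 and 2 (adjusted p = 0.0202). C1ql3, a secreted C1q-like protein of synapses, kept its call with each HFD library left out. Its level was 0.199, 0.326, 0.385, 0.409 and 0.211 CPM in Ctrl and 1.74, 1.42 and 2.23 CPM in LIRKO (log2 2.53, adjusted p = 0.00382; 2.42 and 0.00564 without the pair). C1ql3 lies on chromosome 2 end to end with Pter, a phosphotriesterase-related gene on the opposite strand, with 1 base between them, and Pter rose too, from 2.13 ± 0.834 (SD, n = 5) to 6.06 ± 0.760 CPM (n = 3; adjusted p = 0.00872, and 0.0229 without the pair).

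**Figure D3:**
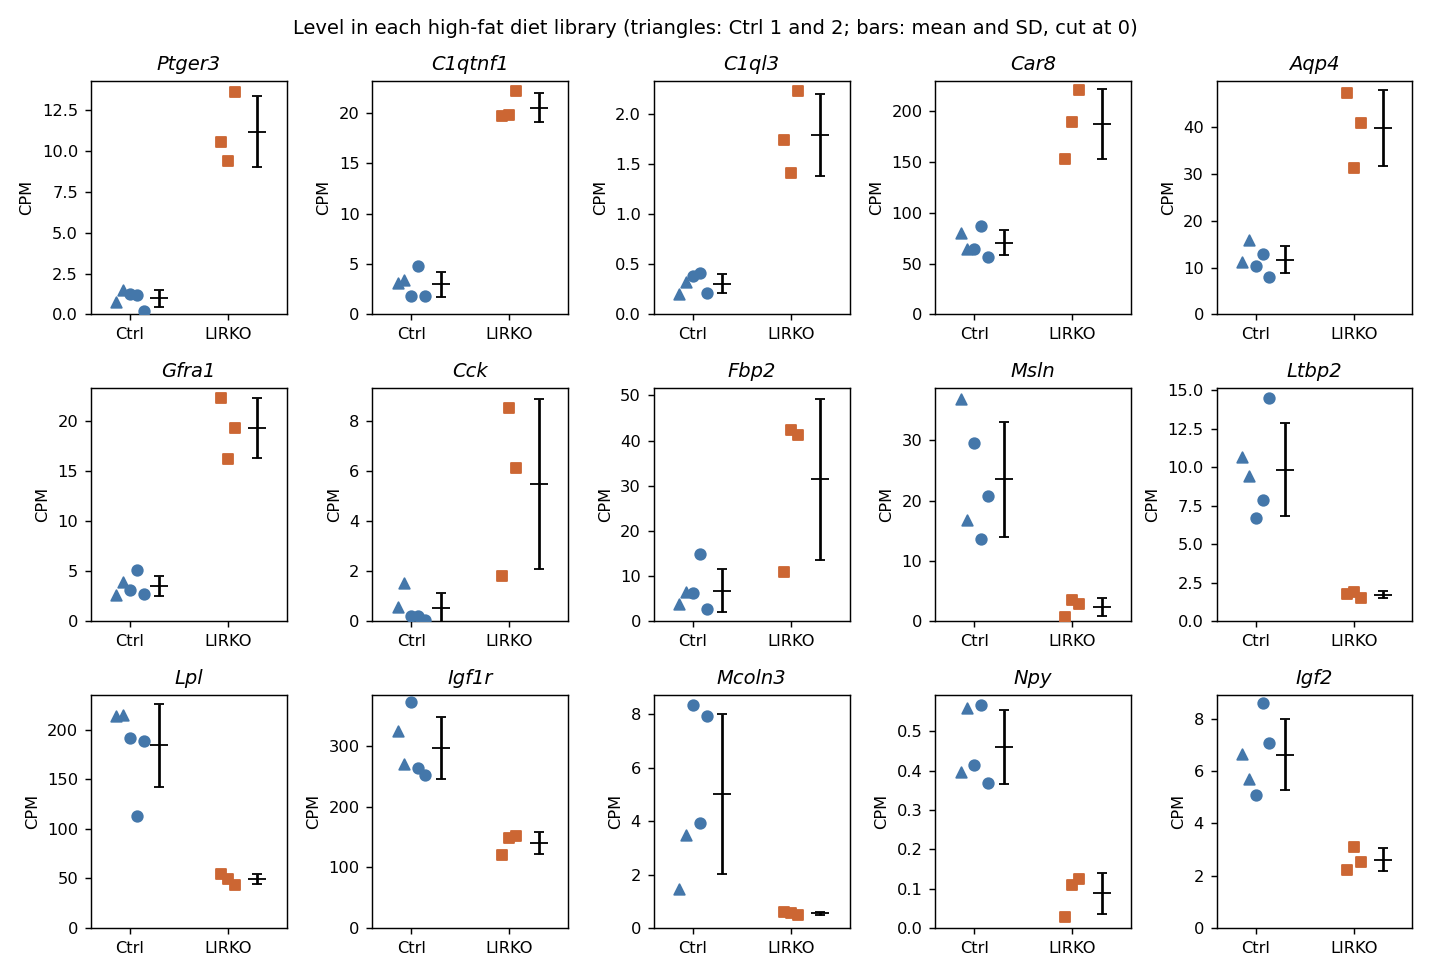
CPM of 15 genes in each HFD library, Ctrl in blue (triangles are replicates 1 and 2) and LIRKO in orange, with the mean and SD at the right of each group. Groups are apart for every gene drawn except Fbp2, where LIRKO replicate 1 (4.63-fold mean rise) lies below Ctrl replicate 4.

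Genes of fuel handling changed at single steps. Lpl encodes lipoprotein lipase, which frees fatty acids from circulating triglyceride at the cell surface, and was the 1 call among 23 tested genes of lipid uptake and storage, whose median log2 was 0.26. The gene lies at chromosome 8, 68880491 to 68907448 on GRCm38. Lpl stood at 214, 215, 192, 113 and 189 CPM in Ctrl replicates 1 to 5 and at 54.3, 49.3 and 43.8 CPM in LIRKO replicates 1 to 3. Ctrl replicate 4 was the lowest of its group and still above every LIRKO library. Lpl was 3.75-fold lower (log2 −1.91, SE 0.24, edgeR adjusted p = 0.00382; −1.74 and 0.00263 without Ctrl replicates 1 and 2).

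On the list of glycolysis and gluconeogenesis 3 of 29 genes rose and 0 fell, among them Pck1 and Fbp2, which act in gluconeogenesis. Pck1, the enzyme that commits the cell to gluconeogenesis, was at 0.0993, 0.512, 0.118, 0.724 and 0.0792 CPM in Ctrl and at 0.581, 4.12 and 3.66 CPM in LIRKO, and LIRKO replicate 1 lay among the Ctrl libraries. Fbp2, the muscle form of fructose bisphosphatase, was at 3.82, 6.47, 6.16, 14.8 and 2.67 CPM in Ctrl and at 10.9, 42.4 and 41.2 CPM in LIRKO, again with LIRKO replicate 1 low. The log2 changes of Pck1 and Fbp2, 3.18 and 2.21 (edgeR adjusted p = 0.0453 and 0.0313), lost their calls without Ctrl replicates 1 and 2 (adjusted p = 0.0616 and 0.0794).

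The summed level of 21 hypoxia genes was highest in the same 3 libraries as Pck1 and Fbp2, without following them through the other libraries. It was 1135, 1218, 2410.0, 3161 and 1646 CPM in Ctrl replicates 1 to 5 and 1473, 2851 and 3167 CPM in LIRKO replicates 1 to 3, highest in Ctrl replicate 4 and LIRKO replicates 2 and 3. Egln3, the oxygen-sensing prolyl hydroxylase induced in hypoxia, was highest in the same 3 libraries, with 1.44, 3.31, 5.42, 16.03 and 1.74 CPM in Ctrl and 9.55, 42.3 and 42.8 CPM in LIRKO, and did not pass (log2 2.49, edgeR adjusted p = 0.151; 2.04 and 0.229 without Ctrl replicates 1 and 2). The part of the hypoxia genes in these differences was not tested.

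Further enzymes and a transporter rose. Bcat1, the cytosolic aminotransferase of branched-chain amino acids, was at 2.04, 2.19, 0.770, 1.35 and 0.555 CPM in Ctrl and at 8.56, 8.39 and 9.37 CPM in LIRKO (log2 2.69, edgeR adjusted p = 0.0326; 3.30 and 0.0192 without Ctrl replicates 1 and 2). Slc1a1, a high-affinity glutamate transporter, was at 0.745, 1.72, 0.296, 1.35 and 0.502 CPM in Ctrl and at 3.83, 7.00 and 7.47 CPM in LIRKO (log2 2.74, adjusted p = 0.0168; 3.10 and 0.0176). Both were apart between the groups. Cyp4x1, a cytochrome P450, was at 0.596, 0.978, 0.533, 1.20 and 0.370 CPM in Ctrl and at 2.67, 5.10 and 5.61 CPM in LIRKO (log2 2.61, adjusted p = 0.00415; 2.68 and 0.00964). Car8, an inactive relative of carbonic anhydrases that binds the calcium-releasing IP3 receptor, was singled out after its values were seen for keeping its call in all 8 leave-outs. It stood at 79.7, 63.9, 64.7, 86.9 and 56.8 CPM in Ctrl and at 153, 189 and 221 CPM in LIRKO (log2 1.41, adjusted p = 0.00382; 1.44 and 0.00759).

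Of 39 tested genes of calcium, sodium and TRP channels 1 rose and 3 fell, the same 4 with and without Ctrl replicates 1 and 2, and of 25 potassium channel genes 1 fell and 0 rose. Mcoln3, the endolysosomal calcium channel TRPML3, stood at 1.44, 3.49, 8.35, 3.94 and 7.95 CPM in Ctrl replicates 1 to 5 and at 0.610, 0.545 and 0.476 CPM in LIRKO replicates 1 to 3. The 3 LIRKO libraries were all below the lowest Ctrl library, replicate 1. Mcoln3 was 9.29-fold lower (log2 −3.22, edgeR adjusted p = 0.00529), and −3.63 on the log2 scale without Ctrl replicates 1 and 2 (adjusted p = 0.000415), which held less of it than the other 3. Kcnj12, an inward rectifier potassium channel, was at 6.75, 3.72, 21.3, 8.88 and 15.0 CPM in Ctrl and at 0.464, 1.81 and 2.61 CPM in LIRKO (log2 −2.77, adjusted p = 0.0220; −3.19 and 0.00446).

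Scn3b encodes an auxiliary subunit of voltage-gated sodium channels. Scn3b stood at 4.17, 5.77, 4.68, 5.23 and 3.70 CPM in Ctrl and at 8.27, 10.5 and 11.2 CPM in LIRKO, higher by a log2 of 1.09 (edgeR adjusted p = 0.0123; 1.14 and 0.0176 without Ctrl replicates 1 and 2). The groups did not overlap. Tpcn1, an endolysosomal cation channel, fell by 0.79 on the log2 scale, from 77.0 ± 7.18 (SD, n = 5) to 44.6 ± 1.20 CPM (n = 3; adjusted p = 0.0192; −0.72 and 0.0335).

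Aqp4, a water channel best known from the brain, was higher. It stood at 11.2, 15.8, 10.4, 12.9 and 7.98 CPM in Ctrl and at 47.3, 31.3 and 41.0 CPM in LIRKO (log2 1.77, edgeR adjusted p = 0.00382; 1.93 and 0.00425 without Ctrl replicates 1 and 2). A channel, a transporter and an enzyme that shape the ions and nucleotides outside the cell were lower. Panx1, which releases ATP, fell from 5.43 ± 0.743 to 2.27 ± 0.390 CPM (log2 −1.26, adjusted p = 0.0344). Entpd2, which breaks ATP down at the cell surface, fell from 13.3 ± 3.40 to 6.10 ± 0.601 CPM (log2 −1.13, adjusted p = 0.0235). Slc12a7, a potassium chloride cotransporter, fell from 127 ± 33.5 to 46.96 ± 14.0 CPM (log2 −1.44, adjusted p = 0.0160). All 3 kept their call without the pair.

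Msln, which encodes the surface glycoprotein mesothelin, had the largest fall of the genes named by the rule. It stood at 36.9, 16.8, 29.5, 13.6 and 20.7 CPM in Ctrl replicates 1 to 5 and at 0.610, 3.53 and 2.78 CPM in LIRKO replicates 1 to 3. The highest LIRKO library was below the lowest Ctrl library, and the level was 10.1-fold lower (log2 −3.33, SE 0.47, edgeR adjusted p = 0.00382; −3.18 and 0.00446 without Ctrl replicates 1 and 2). Msln is also a marker of mesothelium, the lining of the abdominal organs. Of 12 mesothelial markers 4 were tested and Msln was the 1 that passed. The list's summed level was 25.8 to 47.4 CPM in Ctrl and 15.0 to 36.1 CPM in LIRKO, and Upk3b, Upk1b and Muc16 were listed at 0 in all 8 libraries.

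The 2 genes on one side of Msln on chromosome 17 fell as well. Mslnl, the mesothelin-like gene that ends 282 bases from Msln (25736042 to 25748330 and 25748613 to 25754378 on GRCm38), was at 5.26, 3.12, 2.07, 1.39 and 4.33 CPM in Ctrl and at 0.232, 0.850 and 0.576 CPM in LIRKO (log2 −2.52, edgeR adjusted p = 0.0461). It lost its call without Ctrl replicates 1 and 2 (log2 −2.20, adjusted p = 0.0767). Rpusd1, a pseudouridine synthase gene 4577 bases from Mslnl and outside the naming rule, was at 39.8, 36.5, 28.7, 26.6 and 47.7 CPM in Ctrl and at 21.5, 14.7 and 13.1 CPM in LIRKO (log2 −1.13, adjusted p = 0.0272; −1.06 and 0.0460). The next tested genes on either side, Chtf18 and Narfl, were at −0.70 and −0.53 and did not pass (adjusted p = 0.271 and 0.227). Msln and Mslnl are related in sequence, so reads from one may be counted to the other.

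Of 38 tested genes of cell adhesion and planar polarity, 1 rose and 2 fell, Msln among them. Ptprk, a receptor phosphatase that binds itself on neighbouring cells, was at 5.01, 7.59, 6.75, 7.87 and 4.60 CPM in Ctrl and at 18.3, 19.2 and 22.9 CPM in LIRKO (log2 1.66, edgeR adjusted p = 0.0136; 1.66 and 0.0310 without Ctrl replicates 1 and 2). Celsr1, a planar polarity cadherin, was at 7.74, 8.01, 21.3, 19.5 and 18.1 CPM in Ctrl and at 4.53, 3.79 and 5.66 CPM in LIRKO (log2 −1.68, adjusted p = 0.0399; −2.07 and 0.00260). In Ctrl replicates 1 and 2 Celsr1 was nearer to LIRKO than in the other 3 Ctrl libraries. Without that pair 2 more adhesion genes passed, both lower: Cdh8, given with the genes called only there, and the neuronal adhesion protein Nrcam, chosen after its values were seen. Nrcam was at 15.0, 12.8, 44.3, 30.9 and 30.7 CPM in Ctrl and at 1.39, 7.28 and 8.60 CPM in LIRKO (log2 −2.60, adjusted p = 0.0136, against −2.21 and 0.0543 with the pair).

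Further surface and secreted proteins passed. Astn1, an adhesion protein of migrating neurons, was at 1.29, 1.72, 1.69, 2.71 and 1.45 CPM in Ctrl and at 7.23, 6.98 and 7.52 CPM in LIRKO (log2 2.02, edgeR adjusted p = 0.00674; 1.90 and 0.0192 without the pair). Vstm2a, a secreted immunoglobulin-domain protein, rose from 3.68 ± 0.728 (SD, n = 5) to 13.7 ± 1.68 CPM (n = 3; adjusted p = 0.00618 and 0.0167). Flrt1, a leucine-rich repeat protein, fell from 69.7 ± 22.0 to 29.9 ± 1.61 CPM (adjusted p = 0.0136 and 0.0225). Col9a2, a collagen chain named here for keeping its call in all 8 leave-outs, fell from 5.60 ± 0.398 to 2.78 ± 0.481 CPM (adjusted p = 0.00711 and 0.0115).

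Signalling and granule traffic were represented by several single genes. Mlph, melanophilin, links secretory granules to myosin on actin and was the 1 call among 21 genes of glucose sensing and exocytosis, whose median log2 was −0.25. Mlph was at 5.46, 5.68, 13.4, 11.3 and 12.7 CPM in Ctrl and at 2.18, 3.47 and 4.26 CPM in LIRKO (log2 −1.56, edgeR adjusted p = 0.0373; −1.91 and 0.00263 without Ctrl replicates 1 and 2). Rapgef5, an exchange factor that activates Rap, was at 13.2, 14.9, 11.5, 21.3 and 8.69 CPM in Ctrl and at 45.2, 48.9 and 61.4 CPM in LIRKO (log2 1.90, adjusted p = 0.0136; 1.91 and 0.0352). Both were apart between the groups. Ache, acetylcholinesterase, rose from 10.7 ± 3.14 (SD, n = 5) to 35.0 ± 6.67 CPM (n = 3; adjusted p = 0.0165 and 0.0437), and Dok7, an adaptor of a muscle receptor kinase, fell from 2.62 ± 1.25 to 0.673 ± 0.133 CPM (adjusted p = 0.0223 and 0.0257).

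The remaining genes of the naming rule have looser ties to beta cells. Pknox2, a homeobox transcription factor, rose by a log2 of 2.22 (edgeR adjusted p = 0.0165 with all libraries and 0.0270 without Ctrl replicates 1 and 2), and Fam107a, an actin-binding stress protein, by 1.63 (0.0137 and 0.0332). Sh3bgrl2, a thioredoxin-fold protein, rose by 1.5955 (0.0211), a call lost without the pair (0.0573). Lower were Fam196a at a log2 of −2.51 (0.00683 and 0.00759), Tex15, a gene of germ cells, at −1.84 (0.0446 and 0.00207) and Tspan2os, an antisense RNA, at −1.66 (0.0415 and 0.0360). T2, a relative of brachyury, was at −2.07 (0.0415), overlapped between groups and lost its call without the pair (0.0661). Fam196a, Slc1a1 and Tspan2os each overlap an opposite-strand gene with more counts, and the strand setting of the counting is not stated, so reads of the partners may be mixed. Entpd2, given above, overlaps Npdc1 on the same strand, which stood at 154 CPM against 10.6 CPM for Entpd2 and had a log2 of −0.33. Reads of these genes may be mixed too. D330045A20Rik, named for keeping its call in all 8 leave-outs, was 4.41-fold higher (adjusted p = 0.00382 and 0.00501).

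A further 5 called genes outside the rule were singled out after their values were seen, because they act in receptor signalling. Hrh2, the histamine H2 receptor, was at 0.0496, 0.326, 0.266, 0.315 and 0.317 CPM in Ctrl and at 0.581, 2.25 and 2.33 CPM in LIRKO (log2 2.71, edgeR adjusted p = 0.0105; 2.52 and 0.0176 without Ctrl replicates 1 and 2). Gucy2c, the guanylate cyclase that senses guanylin, was at 34.7, 42.7, 44.6, 60.4 and 41.4 CPM in Ctrl and at 103, 83.2 and 102 CPM in LIRKO (log2 1.0998, adjusted p = 0.0146; 0.98 and 0.0460). Rgs16, which shortens G-protein signals, was at 24.5, 26.7, 26.2, 36.9 and 22.1 CPM in Ctrl and at 46.6, 79.2 and 79.1 CPM in LIRKO (log2 1.32, adjusted p = 0.00529; 1.27 and 0.0176). All 3 were apart between the groups, and LIRKO replicate 1 was the lowest LIRKO library for Hrh2 and Rgs16. Nucb2, the precursor of the peptide nesfatin, rose from 284 ± 34.8 (SD, n = 5) to 465 ± 32.8 CPM (n = 3; adjusted p = 0.0294 and 0.0136). Prkcb, a protein kinase C, fell from 113 ± 32.1 to 53.1 ± 6.397 CPM (adjusted p = 0.0182 and 0.0288).

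Of the genes that passed only without Ctrl replicates 1 and 2, the 8 falls with the smallest p were Ust, Cnr1, Cyp4f39, Cpm, Cdh8, Dpysl5, Hspa12a and Srgap1. Cnr1, a cannabinoid receptor, was at 7.35 and 7.59 CPM in Ctrl replicates 1 and 2, at 29.8, 25.6 and 27.2 CPM in Ctrl replicates 3 to 5 and at 8.48, 8.98 and 12.03 CPM in LIRKO replicates 1 to 3. The log2 change was −1.48 without the pair (edgeR adjusted p = 0.00162) and −0.99 with it (0.428). Ust, a sulfotransferase of matrix glycans, was at 5.36 and 4.75 CPM in the pair, at 17.6, 14.1 and 14.8 CPM in the other Ctrl libraries and at 5.69, 3.84 and 5.19 CPM in LIRKO (log2 −1.66, adjusted p = 0.00104, against −1.22 and 0.168). Cyp4f39, a fatty acid hydroxylase, had log2 changes of −2.09 and −1.64 without and with the pair (adjusted p = 0.00207 and 0.0723). The same values were −1.11 and −0.81 for the carboxypeptidase M gene Cpm (0.00286 and 0.169) and −2.03 and −1.56 for the cadherin Cdh8 (0.00560 and 0.152). Dpysl5, Hspa12a and Srgap1, which serve axon growth, protein folding and Slit signalling, were at −1.75, −1.41 and −1.6010 without the pair and at −1.37, −1.13 and −1.29 with it.

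The 8 rises of this kind were Mapt, Hsd17b11, Olfm1, Tesc, Kazald1, Dusp26, Tagln3 and Pde11a. Mapt, the microtubule protein tau, was at 128 and 144 CPM in Ctrl replicates 1 and 2, at 64.3, 70.9 and 71.1 CPM in Ctrl replicates 3 to 5 and at 111, 111 and 111 CPM in LIRKO. The pair lay above LIRKO and the other 3 Ctrl libraries below it (log2 0.69, edgeR adjusted p = 0.00262 without the pair, 0.21 and 0.863 with it). Tagln3, an actin-binding protein of neurons, had log2 changes of 2.43 and 1.62 without and with the pair (adjusted p = 0.00516 and 0.111), and Pde11a, which breaks down cAMP and cGMP, 3.56 and 2.40 (0.00739 and 0.0813). Hsd17b11, a steroid dehydrogenase on lipid droplets, was apart between the groups with all libraries too, at 52.8 ± 6.90 (SD, n = 5) and 71.9 ± 2.52 CPM (n = 3), with an adjusted p of 0.0144 without and 0.0917 with the pair. Olfm1, Tesc, Kazald1 and Dusp26 were at log2 changes of 0.94, 1.67, 1.51 and 1.68 without the pair and 0.51, 0.61, 0.80 and 1.02 with it. Whether the pair differs in biology or in RNA handling was not tested.

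Mafa, the transcription factor of mature beta cells, belongs to this set. It stood at 6.95 and 6.24 CPM in Ctrl replicates 1 and 2, at 22.1, 21.003 and 30.8 CPM in Ctrl replicates 3 to 5 and at 8.71, 4.36 and 5.19 CPM in LIRKO replicates 1 to 3. The difference did not pass with all libraries (log2 −1.53, edgeR adjusted p = 0.361) and passed without the pair (log2 −2.02, adjusted p = 0.0460). With all libraries 0 of 19 tested beta cell identity factors passed (median log2 −0.17), where 2 were under an unadjusted p of 0.05 in edgeR, 0 passed in DESeq2 and 4 with voom quality weights. Pdx1 was at 94.1, 111, 83.1, 77.7 and 104 CPM in Ctrl and at 91.6, 60.7 and 60.4 CPM in LIRKO (log2 −0.41, adjusted p = 0.637; −0.32 and 0.511 without the pair). Slc2a2, the glucose transporter, was at 103, 81.6, 141, 85.0 and 190.0 and 98.3, 41.9 and 57.6 CPM (log2 −0.87, adjusted p = 0.642; −1.07 and 0.300). Aldh1a3, a marker of dedifferentiated beta cells, was at 11.2, 17.97, 8.85, 24.3 and 13.9 CPM in Ctrl and at 52.9, 44.4 and 54.8 CPM in LIRKO. Its groups were apart, yet it did not pass (log2 1.73, SE 0.69, adjusted p = 0.482 with all libraries and 0.377 without the pair).

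Over 34 lists of processes and 12 of cell type markers, 25 of 1000 tested members passed, 13 higher and 12 lower, and 17 of the process lists held a call. Over all genes tested, 98 of 19284 passed (0.508%). The lists were chosen with earlier results of these data known, so their share of calls is not read as an enrichment. The cytosolic ribosomal protein list turned with the 2 Malat1-rich libraries: 0 of 66 genes passed in either fit, the median log2 was −0.34 with all libraries and 0.38 without Ctrl replicates 1 and 2, and 2 against 66 of the genes were above 0. Rpl24, the member with the smallest p, was at 53.9 and 54.0 CPM in the pair, at 6.39, 6.42 and 10.99 CPM in Ctrl replicates 3 to 5 and at 18.7, 12.2 and 7.67 CPM in LIRKO. Nuclear genes of oxidative phosphorylation turned likewise, from a median of −0.11 to 0.15 (0 of 59 passing), and mitochondrially encoded mRNAs went from −0.00244 to 0.40 (0 of 7).

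The lists of metabolism, stress and cell division described next kept their sign. The medians with and without the pair were 0.66 and 0.34 for glycolysis and gluconeogenesis, 0.57 and 0.33 for hypoxia response (0 of 21 passing) and 0.61 and 0.33 for interferon response and class I presentation (0 of 34). Ifi27 and Usp18, interferon-induced genes with the smallest p of that list, were at 0.87 and 0.95 (edgeR adjusted p = 0.655 and 0.657) and at 0.85 and 0.61 without the pair (0.469 and 0.615), and their groups overlapped. Cholesterol synthesis and uptake had medians of 0.22 and 0.18, with 22 of 24 genes above 0 and 0 passing. Fdft1, which makes squalene, was at 67.6, 63.5, 59.2, 65.9 and 65.7 CPM in Ctrl and at 111, 80.9 and 82.9 CPM in LIRKO, apart but not past the test (adjusted p = 0.106 with and 0.0842 without the pair), and Insig1, the sterol sensor, had adjusted p-values of 0.119 and 0.160. The ER chaperone list had medians of 0.21 and 0.12 and 0 of 34 passing, with Manf, a secreted ER stress factor, at a log2 of 0.51 (adjusted p = 0.324; 0.56 and 0.170 without the pair). G2 and M phase genes were at −0.33 and −0.47, with 0 of 32 passing. In these lists 0 also passed without the pair. At an unadjusted edgeR p under 0.05 there were 5 hypoxia genes, 5 ER genes, 4 cholesterol genes, 2 G2 and M phase genes and 0 genes of the interferon, ribosomal, oxidative phosphorylation and mitochondrial lists. DESeq2 called 2 cholesterol genes and 0 in the others, and voom with quality weights called 5 hypoxia, 4 ER and 1 cholesterol genes.

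**Figure D4:**
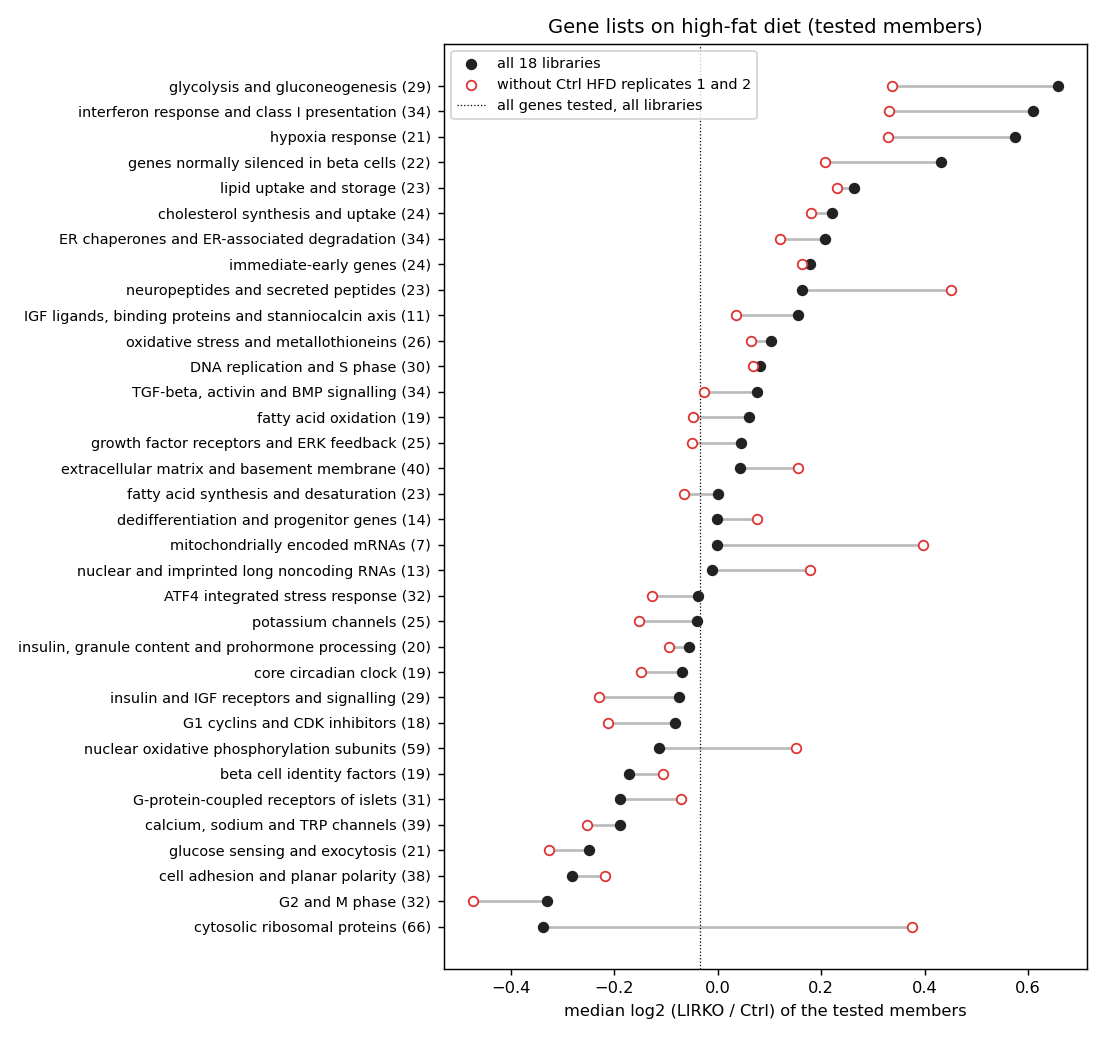
Median log2 of the LIRKO to Ctrl ratio for the tested members of 34 process lists, with all 18 libraries (filled) and without Ctrl HFD replicates 1 and 2 (open), beside the median over all genes (dotted line, −0.0351). Ribosomal protein genes go from −0.34 to 0.38, so their direction depends on those 2 libraries.

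Markers of other cell types gave 2 calls in 12 lists, Msln and Gc. In such libraries fewer cells of a type and less RNA per cell cannot be told apart. Gc, the vitamin D binding protein made by alpha cells, stood at 127, 129.9, 118, 165 and 123 CPM in Ctrl and at 248, 224 and 229 CPM in LIRKO, higher in every LIRKO library (log2 0.81, edgeR adjusted p = 0.0123; 0.79 and 0.0270 without Ctrl replicates 1 and 2). The summed level of 14 alpha cell markers was 3216 to 7700.4 CPM in Ctrl and 4265 to 6541 CPM in LIRKO, overlapping, and Gcg had a log2 of 0.16 that did not pass and changed sign without the pair (−0.36). The sum of 17 endothelial markers was 382, 416, 221, 298 and 206 CPM in Ctrl replicates 1 to 5 and 409, 379 and 321 CPM in LIRKO replicates 1 to 3. Ctrl replicates 1 and 2 overlapped LIRKO, and Ctrl replicates 3 to 5 were all below it. The list's median log2 was 0.38 with the pair (16 of 17 genes above 0) and 0.64 without it (17 of 17), and 0 genes passed in either edgeR fit. With all libraries 0 were under an unadjusted p of 0.05 and 0 passed in DESeq2. The part of endothelial RNA in the gene differences above was not tested. Macrophage and myeloid markers summed to 279 to 744 CPM in Ctrl and to 463 to 605 CPM in LIRKO, and acinar markers to 86.5 to 266 and 117 to 373 CPM, both with overlap. Their median log2 values were 0.18 and 0.52 with the pair and −0.0109 and 0.40 without it. A listed 0 was not read as absence: Ndufs3 and Uqcrc1, respiratory chain genes of every cell, were listed at 0 in all 8 libraries, as were Hhex, a delta cell factor, and Ide, the insulin-degrading enzyme.

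The genotype difference on chow used other libraries, 4 LIRKO and 6 Ctrl, though the fit shares 1 estimate of the spread. There 993 of the 19284 genes passed (5.15%), and 63 of the 98 HFD genes were among them, all in the same direction. That is 64.3% of the 98 and 6.34% of the 993, and 94 of the 98 had the same sign. LIRKO chow libraries 1 and 2 were near-identical, as were 3 and 4, and the chow fit takes them as 4 separate libraries. The p-values and the number of calls on chow may therefore overstate the evidence, and the chow count with the pairs summed is not given here. C1qtnf1 was at 0.279 to 3.79 CPM in Ctrl chow and at 27.8 to 31.6 CPM in LIRKO chow (log2 4.51, edgeR adjusted p = 2.27e-05), Lpl at 282 to 492 and 95.4 to 136 CPM (−1.70, 0.000152) and Chgb at 2176 to 2988 and 3991 to 4777 CPM (0.83, 0.00546). Ltbp2, Msln and Mcoln3 were lower on chow too (log2 −2.06, −1.78 and −1.95, adjusted p = 0.000472, 0.00846 and 0.00463).

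Other HFD genes did not pass on chow. Igf1r was at 331 to 726 CPM in Ctrl chow and at 519.9 to 704 CPM in LIRKO chow (log2 0.14, edgeR adjusted p = 0.729), and the difference between diets did not pass in edgeR (interaction log2 −1.23, adjusted p = 0.315) but passed in DESeq2 (adjusted p = 0.0127). Astn1 (log2 −0.19 on chow), Scn3b (0.17) and Hrh2 (0.15) did not pass on chow either, with edgeR interaction adjusted p-values of 0.136, 0.465 and 0.398, so a difference between the diets was not shown for them.

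The interaction tests whether the genotype effect differs between the diets, with chow subtracted from HFD. It passed for 1 of 19284 genes (0.00519%), Etv5, an ETS transcription factor induced by growth factor signalling. In HFD libraries Etv5 stood at 4.67, 3.82, 5.33, 4.91 and 5.28 CPM in Ctrl replicates 1 to 5 and at 4.01, 4.60 and 4.44 CPM in LIRKO replicates 1 to 3, overlapping (log2 −0.15, edgeR adjusted p = 0.901). On chow the LIRKO libraries were at 19.3 to 24.1 CPM and the Ctrl libraries at 4.35 to 8.01 CPM (log2 1.78, adjusted p = 5.87e-06). The interaction log2 was −1.93 (adjusted p = 0.00510), and it missed the threshold with the LIRKO chow pairs summed (adjusted p = 0.113) or without LIRKO HFD replicate 1 (adjusted p = 0.0570), where 0 genes passed. Leaving out Ctrl chow replicate 3, Ctrl chow replicate 5 or Ctrl HFD replicate 3 gave 3, 2 and 2 genes. Without Ctrl HFD replicates 1 and 2, 8 of 18941 genes passed (0.0422%), Etv5 among them.

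**Figure D5:**
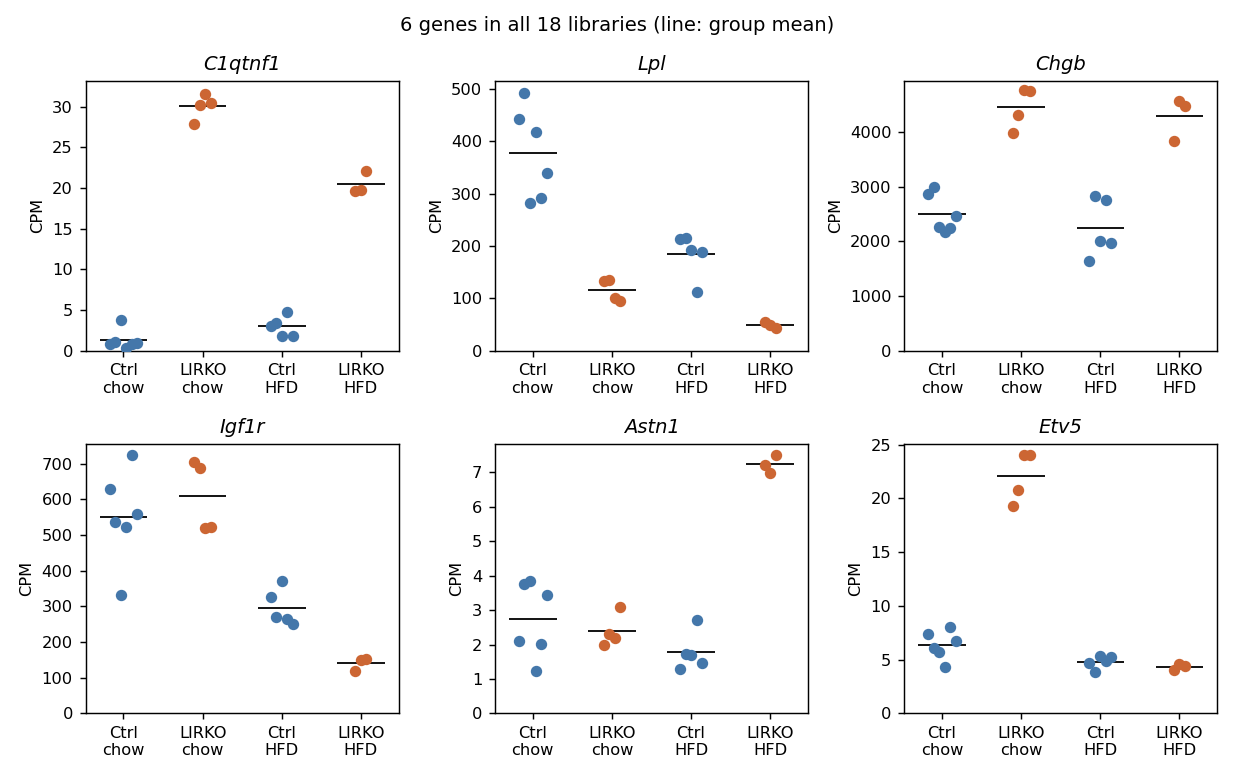
CPM of 6 genes in all 18 libraries by genotype and diet, with a line at each group mean. C1qtnf1, Lpl and Chgb separate the genotypes on both diets, Igf1r and Astn1 on HFD, and Etv5 on chow, where the LIRKO libraries are at 19.3 to 24.1 CPM.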

How the data were processed

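RNA-seq was done on 18 libraries of sorted mouse islet beta cells, made with a directional kit per the labels. The authors deposited a table of read counts per gene, unnormalised. STAR, featureCounts and the build GRCm38 are named per the submitters' processing notes; the sources used here do not state their versions, the annotation or whether strand was used in counting. Of 53090 gene IDs, 52489 were named with GENCODE M21, and 601 had no match (up to 0.0176% of a library's counts).

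Groups follow the genotype and diet in the labels, and replicates were numbered in accession order. Ctrl HFD replicates 1 and 2 are the 2 Malat1-rich libraries. All 18 libraries entered 1 edgeR quasi-likelihood fit (edgeR 4.0.16, R 4.3.3) with a coefficient per group, filterByExpr and TMM scaling, and 19284 genes were tested with Benjamini-Hochberg adjustment at 0.05. CPM used TMM library sizes. Total counts per HFD library were 19490235 to 38795120, which limits the precision of genes with few counts. The fit was tested on simulated data. Those libraries were drawn independently, with no Malat1-rich libraries and no near-identical pairs, so the test does not bear on these features.

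Genes were named by a rule: the 20 largest rises and 20 largest falls among called genes with a mean log2 CPM of at least 0, called members of the lists, the 8 rises and 8 falls with the smallest p among genes called only without Ctrl HFD replicates 1 and 2, the 2 smallest p in lists with no call, and genes fixed by name. Others are said to be chosen after their values were seen. A few genes of the rule are not reported here and stay in the counts. The comparison, the lists and the rule were chosen with earlier results of these data known.

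Alternatives were the fit without Ctrl HFD replicates 1 and 2, RLE size factors, DESeq2 1.42.0, limma 3.58.1 voom with quality weights, no filter, a filter of 1 CPM in 3 libraries, the HFD libraries alone with and without those 2, the near-identical LIRKO chow libraries summed in pairs, and each library left out. A fit without the 2 libraries and LIRKO HFD replicate 1 was chosen after seeing the data. Promoter windows are RefSeq sequences on GRCm38.p6.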

Additional observations from a re-analysis of the deposited data

Results flagged for a closer look

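Among 102 groups of 4 to 10 values checked, 5 held a library far from the rest of its group, and chance gives about 1 in 20. Ctrl HFD replicate 4 was high for Egln3 at 16.03 CPM (the other 4 Ctrl libraries at 1.44 to 5.42 CPM), for Gc at 164.5 CPM (118 to 129.9 CPM) and for Gdf10 at 0.472 CPM (0 to 0.0592 CPM). It was low for Lpl at 113 CPM (189 to 215 CPM). In each of Gc, Gdf10 and Lpl it was the Ctrl library nearest to LIRKO. Ctrl HFD replicate 1 was low for Hrh2 at 0.0496 CPM (0.266 to 0.326 CPM).

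The genotype effect on Etv5 differed between the diets by an interaction test, with a log2 of −1.93 (edgeR adjusted p = 0.00510). It missed the threshold with the LIRKO chow pairs summed (edgeR adjusted p = 0.113) or without LIRKO HFD replicate 1 (0.0570).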

How the results depend on the processing

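The count of 98 genes was 193 without Ctrl HFD replicates 1 and 2, 316 with DESeq2, 924 with voom quality weights, 54 with the LIRKO chow pairs summed, 19 with the 8 HFD libraries alone, 148 in the fit chosen after seeing the data (without Ctrl HFD replicates 1 and 2 and LIRKO HFD replicate 1) and 10 to 162 with single libraries left out. RLE size factors, no filter, the stricter filter and the 6 HFD libraries without the pair gave 103, 90, 110 and 147. For the interaction the 1 gene became 8 without the pair, 42 with DESeq2, 43 with voom quality weights, 0 with the pairs summed and 0 to 3 with single libraries left out. The cause of these shifts was not tested. Of 61 named genes that were called, 53 kept the call without the pair, 61 with DESeq2, 37 with the pairs summed and 10 without LIRKO HFD replicate 3, and 0 changed direction in any alternative. The log2 changes that turned belong to genes that were not called. Gcg (0.16) was −0.36 without the pair, −0.33 in the 6 HFD libraries and −0.37 to 0.68 with single libraries left out. Insr (0.10) was −0.16 without the pair, −0.10 with voom quality weights, −0.14 in the 6 HFD libraries, −0.17 in the added fit and −0.00736 to 0.21 with single libraries left out. Malat1 (−0.39) was 0.76, 0.52, 0.78 and 0.78 in the same 4 and −0.60 to 0.0388 with single libraries left out. Rpl24 (−1.03) was 0.69, 0.10, 0.71 and 0.33, and −1.39 with LIRKO HFD replicate 1 left out. No paired analysis was possible because the labels give no replicate numbers.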
